A study of Mus musculus with 6 samples.

Results

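The cytosolic ribosomal protein genes of the mouse, with the muscle paralog Rpl3l among them, were followed in ischemic gastrocnemius muscle of mice with and without GPR174, a G protein-coupled receptor for lysophosphatidylserine. A gene was taken as a member when its symbol begins with Rpl or Rps followed by a number, by a or by p0 to p2, and S6 kinases were left out. This rule found 92 of the 18089 genes of the deposited table, 56 with an Rpl symbol (large subunit) and 36 with an Rps symbol (small subunit). Some names caught by the rule are not core subunits: Rps19bp1 encodes a protein that binds RPS19, and Rpl7l1 a paralog of RPL7. Among the members are 6 near-identical copies of other members, which share reads with them.

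The samples were total RNA from the ischemic gastrocnemius of 3 wild-type mice (WT) and 3 Gpr174-/Y mice (called Gpr174-KO in the labels), all male, on the C57BL/6 background, aged 8 to 10 weeks, and taken 7 days after hindlimb ischemia (HLI). HLI was made in both groups by tying off and removing a segment of the left femoral artery, so no library comes from muscle without ischemia. Because the deletion is present in every cell of the animal, it cannot be assigned to 1 cell type, and whole muscle holds fibres, vessels, connective tissue and immune cells together. Each library held between 18417077 and 19394469 expected counts, with 88 members kept by the filter on low counts. The labels do not say whether same-group samples were prepared separately, so the p-values measure the spread between these 6 samples.

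The ribosome reads messenger RNA and makes every protein of the cell. Its large subunit carries the peptidyl transferase centre and its small subunit decodes the message, and each ribosomal protein is normally needed in a single copy per ribosome, apart from the acidic stalk proteins RPLP1 and RPLP2. Messages of ribosomal proteins typically, though not in every member here, begin with a run of pyrimidines, the 5′ terminal oligopyrimidine motif. Through it the growth kinase mTORC1 controls their translation. RPL3 sits close to the peptidyl transferase centre, and RPL3L is its paralog of adult heart and skeletal muscle fibres, known to fall when fibres grow or regenerate while RPL3 rises.

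Sequences around the start sites came from RefSeq on GRCm38.p6, where 70 of the 92 members had an entry, with 82 starts in all. The windows of 3 members that hold the letters CTTTC, a short pyrimidine run, are given here, followed by those of 4 members that the results turn on, each from 15 bases before to 15 after the start on the gene's own strand, with CTTTC in capitals. They are Rpl12 at chr2:32961697-32961726 (plus), Rps10 at chr17:27635230-27635259 (minus), Rps27 at chr3:90213634-90213663 (minus), Rps12 at chr10:23787195-23787224 (minus), Rpl36al at chr12:69184053-69184082 (minus), the first start of Rps27l at chr9:66946071-66946100 (plus) and the first start of Rpl3l at chr17:24727811-24727840 (plus).
Rpl12: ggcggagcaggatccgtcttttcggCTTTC
Rps10: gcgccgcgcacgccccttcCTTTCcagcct
Rps27: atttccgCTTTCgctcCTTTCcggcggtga
Rps12: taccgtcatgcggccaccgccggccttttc
Rpl36al: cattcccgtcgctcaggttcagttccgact
Rps27l: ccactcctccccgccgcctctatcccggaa
Rpl3l: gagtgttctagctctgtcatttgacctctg

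The letters CTTTC on the gene's strand were in 19 of the 82 member windows (23.2%), compared with 4.05% of the windows of all 32851 starts. The letters CCGGAAG, a form of the site bound by ETS factors, were looked for on both strands from 250 bases before to 50 after the start and were in 27 of the 82 windows (32.9%), compared with 8.86% of all starts; read on the other strand it is CTTCCGG, whose first letter can be the last letter of CTTTC. Rpl3l held neither at its start. These matches are a description of letters, and a window without them says nothing of the factor.

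The 250 bases before the first start of Rpl3l, at chr17:24727576-24727825 on the plus strand, are given because Rpl3l has the largest change of the members. Capitals mark CAGCTG, one form of the E-box read by myogenic factors and the same on both strands, which ends 14 bases before the start.
Rpl3l, first start: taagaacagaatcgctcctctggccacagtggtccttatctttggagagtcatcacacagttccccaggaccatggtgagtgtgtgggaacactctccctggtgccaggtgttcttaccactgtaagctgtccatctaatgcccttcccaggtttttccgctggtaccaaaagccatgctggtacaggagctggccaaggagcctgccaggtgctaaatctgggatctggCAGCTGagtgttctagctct

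CAGCTG was in 5 of the 82 member windows (6.1%) and in 16.3% of all starts, so it is not frequent among the members. The letters TAAAAATA, a form of the MEF2 site, were in 1 member window (1.22%), that of a second Rpl3l start, and in 2.72% of all starts.

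Rpl3l fell more than any other member, and its partner Rpl3 rose more than any other. Rpl3l was at 376.3, 304.8 and 186.8 TPM (a level per length, scaled to the same total in each library) in the WT libraries and at 81.86, 74.98 and 77.4 TPM in the Gpr174-KO libraries. Rpl3 was at 371.9, 437.9 and 537 TPM in WT and at 864.9, 868.4 and 894 TPM in Gpr174-KO. The groups did not overlap for either gene, and the WT libraries spread more widely than the Gpr174-KO libraries for both.

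In expected counts, Rpl3l held 4977, 4051 and 2479 in WT and 1058, 974 and 964 in Gpr174-KO. The log2 fold change was -2.29 (SE 0.27, n = 3 against 3, adjusted p = 0.00128 by edgeR's quasi-likelihood test), a level 0.205 times that of WT. For Rpl3 the log2 fold change was 0.58 (SE 0.10, n = 3 against 3, adjusted p = 0.0040 by edgeR's quasi-likelihood test), a fold of 1.5. Rpl3l was the member with the lowest p among those that were lower, and Rpl3 among those that were higher.

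**Figure D1:**
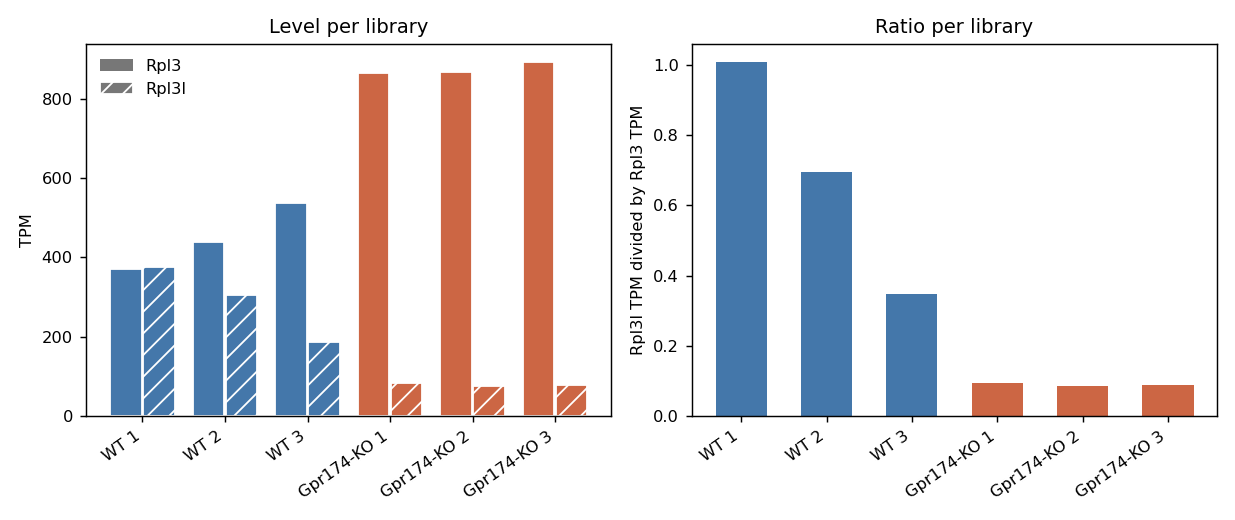
Left, levels of Rpl3 (plain bars) and Rpl3l (hatched bars) in TPM, per library, WT in blue and Gpr174-KO in orange. Right, the ratio of the 2 levels per library. The ratio lies between 0.348 and 1.01 in the 3 WT libraries and between 0.0863 and 0.0946 in the 3 Gpr174-KO libraries.

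The ratio of Rpl3l to Rpl3 within a library does not depend on how libraries are scaled against each other. It was 1.01, 0.696 and 0.348 in the WT libraries, so that Rpl3l made up 50.3%, 41.0% and 25.8% of the TPM of the pair. In Gpr174-KO it was 0.0946, 0.0863 and 0.0866, or 8.65%, 7.95% and 7.97% of the pair. On the log2 scale the ratio averaged -0.68 ± 0.78 (SD, n = 3) in WT and -3.49 ± 0.08 (SD, n = 3) in Gpr174-KO, a difference of -2.81 or 7.02-fold, without overlap (exact permutation test, 2-sided, p = 0.1, the smallest that 3 against 3 can give; adjusted p = 0.167 over the 5 pairs tested). Summed, the pair stood at 748.2, 742.7 and 723.7 TPM in WT and 946.8, 943.4 and 971.4 TPM in Gpr174-KO. This sum depends on the scaling. In CPM after TMM scaling it was 610.7, 581.4 and 532.8 in WT and 576.7, 559.9 and 553.7 in Gpr174-KO, with overlap.

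Most of the difference was in the main transcript of Rpl3l. NM_001163945.1 carried 92.2%, 91.4% and 91.9% of the gene's counts in WT and 88.8%, 87.3% and 83.3% in Gpr174-KO, while each of the 4 other listed transcripts carried at most 7.85% in any library. Of these 4, XM_011246569.3 was lower too, at 173.53, 169.5 and 126.87 counts in WT and 61.07, 76.41 and 67.84 in Gpr174-KO. The rest overlapped between the groups. For Rpl3, NM_013762.2 carried between 93.5% and 94.5% in all 6 libraries. The gene counts of Rpl3 were whole to within 0.005 in all 6 libraries, as they are when no read is divided with another gene. Those of Rpl3l were not whole in all 6 libraries, and whether its reads were divided with another gene was not tested.

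Markers of other cells moved between the groups as well. Over all genes tested, 27.0% were higher and 27.6% lower. The 10 mature fibre genes examined (among them Ckm, Acta1 and Pvalb) were all lower, with a median log2 fold change of -1.47. Their log2 fold changes ran from -2.34 (Pvalb) to -1.15 (Acta1), and that of Rpl3l, -2.29, lay within this range. These 10 genes took 15.25%, 13.8% and 11.56% of counts in WT and 6.485%, 6.289% and 5.982% in Gpr174-KO. All 6 macrophage markers were higher (median 0.92), their sum ranging from 1066 to 1518 CPM in WT and from 2514 to 2521 CPM in Gpr174-KO, and all 5 endothelial markers were lower (median -0.63), from 769.4 to 930.8 CPM in WT and from 479.9 to 544.2 CPM in Gpr174-KO. Of the 7 regenerating fibre genes 5 were higher (median 1.42), with sums of 2422 to 4949 CPM in WT and 4879 to 5711 CPM in Gpr174-KO, and of the 5 fibroblast genes 3 were higher and 2 lower, with 1 lower when WT replicate 2, Gpr174-KO replicate 1 or Gpr174-KO replicate 2 was left out. Of the 5 slow fibre genes 3 were lower (median -1.43), with Myl2 and Myl3, the slow and cardiac myosin light chains, at -4.29 (SE 0.24, adjusted p = 0.000312) and -4.11 (SE 0.26, adjusted p = 0.000391) in edgeR's quasi-likelihood test. Tnnt1 and Tnni1 were not lower, at 0.03 and 0.49 (adjusted p = 0.758 and 0.0623 in the same edgeR test). With total counts 2 of the 5 were higher and 2 lower, beside 50.7% and 14.0% of all genes. Without WT replicate 3, 1 was higher. Of the 4 T cell genes and the 3 erythroid genes 0 passed in edgeR's quasi-likelihood test, with 1 T cell gene (Cd8a) at an unadjusted p under 0.05; 2 T cell genes were higher without WT replicate 3, and all 3 erythroid genes without Gpr174-KO replicate 3. The summed levels of the fibroblast genes were 14930 to 21340 CPM in WT and 27240 to 30670 CPM in Gpr174-KO, those of the slow fibre genes 578 to 671.1 and 596.1 to 686.4 CPM, those of the T cell genes 12.01 to 21.69 and 21.74 to 23.08 CPM, and those of the erythroid genes 127.3 to 185.9 and 103.2 to 280.8 CPM. The neutrophil list had 0 of its 4 genes kept by the filter, with the defining marker Ly6g at 3 counts or fewer in every library. Fewer cells of a type and less RNA per cell cannot be told apart in whole muscle, and the part of these shifts in the ribosomal protein results was not tested.

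Most of the other members passed the test in neither direction. Of the 88 tested, 28 (31.8%) were higher in Gpr174-KO at an adjusted p of 0.05 in the edgeR quasi-likelihood fit, beside 27.0% of all 14395 genes tested, and 3 were lower (Rpl3l, Rps27l and Rpl36al), beside 27.6% of all genes. The share of members that rose was thus near that of all genes, while few members fell. The remaining 57 passed in neither direction, and 86 of the 88 had a log2 fold change between -0.5 and 0.5. The median member log2 fold change was 0.15 (quartiles 0.09 and 0.23), beside 0.00 (quartiles -0.33 and 0.29) for all genes, and 82 of the 88 were above 0. Only Rpl3l passed an absolute log2 fold change of 1, beside 4.84% of all genes in its direction, and 0 members passed it upwards, beside 3.45% of all genes.

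**Figure D2:**
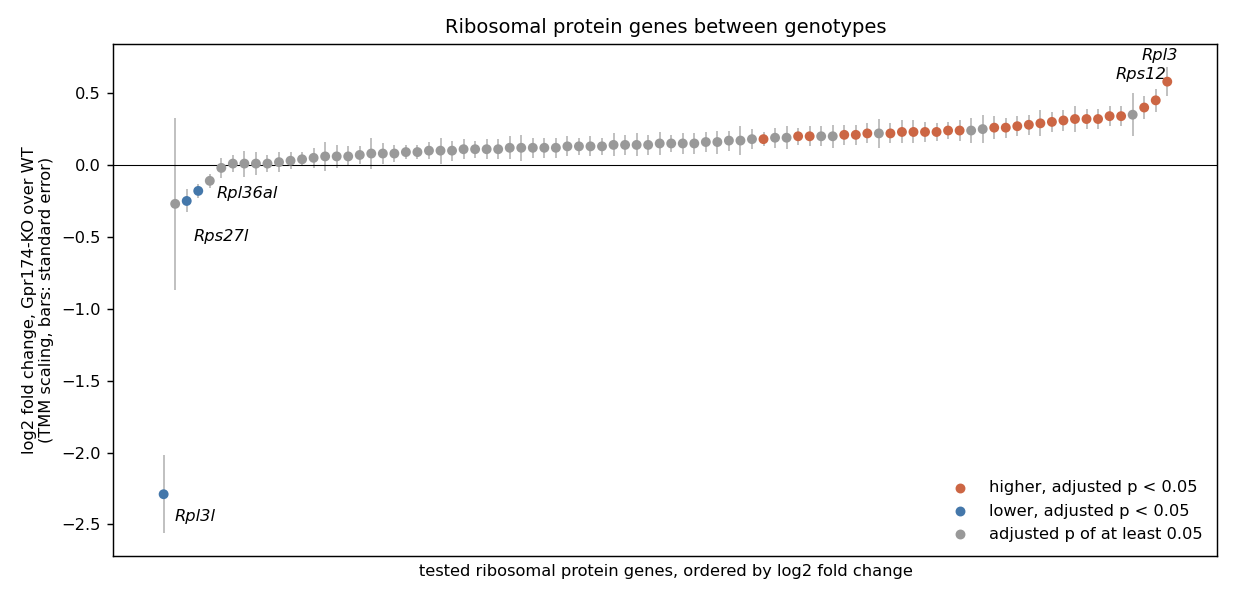
Log2 fold change of each of the 88 tested ribosomal protein genes, Gpr174-KO over WT, with its standard error, in ascending order; colour marks the adjusted p and direction. Rpl3l stands alone at -2.29, while 86 of the 88 genes lie between -0.5 and 0.5.

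These counts depended on the scaling and on single libraries. With TMM scaling the median of all genes was at 0.00 and with total counts at 0.28, and with total counts 82 members were higher and 1 (Rpl3l) lower, beside 50.7% and 14.0% of all genes, with a member median of 0.42. Without WT replicate 3 the number of members higher was 58, beside 31.7% of all genes. Without WT replicate 2, Gpr174-KO replicate 1 or Gpr174-KO replicate 2 it was 9, 10 and 8, beside 18.2%, 21.3% and 18.4% of all genes. Within WT, replicate 3 had the highest CPM for 77 of the 88 members and replicate 1 the lowest for 79, and within Gpr174-KO replicate 1 had the highest for 74 and replicate 3 the lowest for 76. Replicate 2 lay between the other two of its group for 79 of the 88 members in WT and 77 in Gpr174-KO, beside 71.7% and 64.1% of all tested genes, while replicates 1 and 3 lay between the others for 15.3% and 12.9% of all tested genes in WT and 20.2% and 15.7% in Gpr174-KO. The 3 libraries of a group are therefore not alike in this respect. Whether they are independent mice was not tested, and every n = 3 and p given here takes them as such. With replicates 1 and 3 alone, 0 genes of the table passed in edgeR's quasi-likelihood test, while 5026 genes and 4 members had an unadjusted p under 0.05.

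Taken as one pool, the members held a larger share of the message in Gpr174-KO. They made up 5.938%, 6.475% and 7.297% of all TPM in the WT libraries and 9.645%, 9.661% and 9.66% in the Gpr174-KO libraries. The share was 6.57% ± 0.684 (SD, n = 3) in WT and 9.655% ± 0.00928 (SD, n = 3) in Gpr174-KO, 1.47-fold higher and without overlap (exact permutation test, 2-sided, p = 0.1, the smallest possible). The fold was 1.36 as a share of expected counts, 1.33 with the mature and slow fibre genes left out of the total, and 1.12 as the summed CPM after TMM scaling, at 25860, 27060 and 28690 in WT and 31490, 30690 and 29530 in Gpr174-KO. The mature fibre genes held 19.08%, 17.67% and 15.43% of all TPM in WT and 9.239%, 8.873% and 8.289% in Gpr174-KO. Within WT the library with the most fibre message had the least ribosomal protein message. Within Gpr174-KO replicate 1 had the most fibre message. By share of TPM it had the least ribosomal protein message, at 9.645% beside 9.661% and 9.66%. By share of counts it had the most, at 3.398% beside 3.368% and 3.311%.

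**Figure D3:**
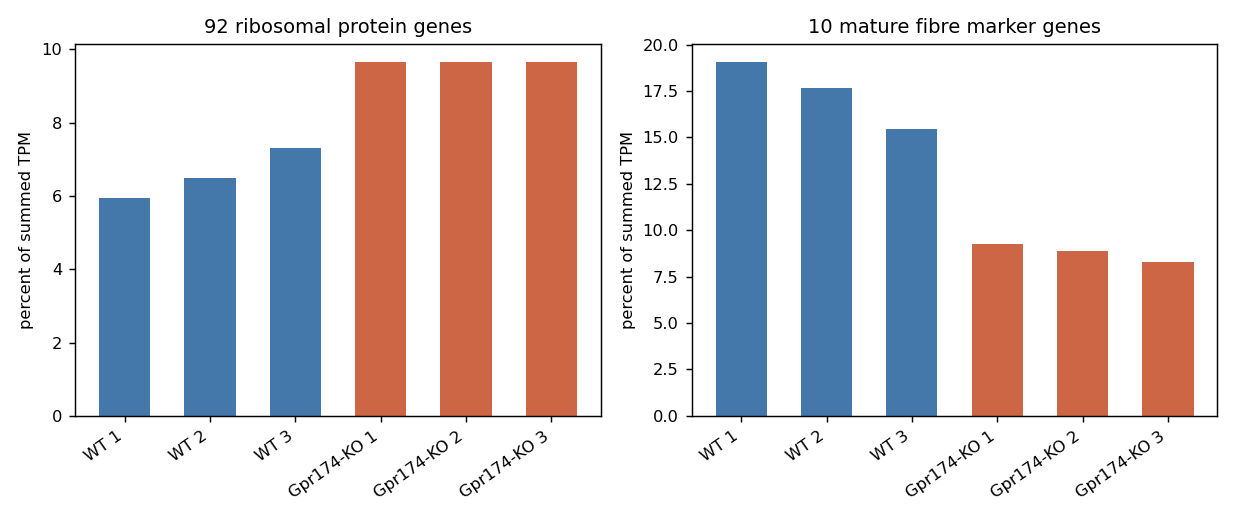
Percent of each library's summed TPM held by the 92 ribosomal protein genes (left) and by the 10 mature fibre marker genes (right), WT in blue and Gpr174-KO in orange. The ribosomal protein share lies between 5.938% and 7.297% in WT and between 9.645% and 9.661% in Gpr174-KO, and the fibre share is higher in WT than in Gpr174-KO.

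In TPM, 85 of the 88 tested members had all 3 Gpr174-KO libraries above all 3 WT libraries, beside 64.0% of all genes, and 1, Rpl3l, had them all below, beside 11.5%. In CPM after TMM scaling the counts were 45 and 4, beside 33.1% and 32.4% of all genes.

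Among large subunit genes, 14 of 53 tested were higher (26.4%, beside 27.0% of all genes) and 2 lower (3.77%, beside 27.6%), with a median log2 fold change of 0.14. With total counts 48 were higher (90.6%, beside 50.7% of all genes) and 1 lower (1.89%, beside 14.0%). Among those that were higher, the largest changes after Rpl3 were those of Rpl12, whose product sits at the base of the stalk that recruits factors, and Rpl10a, whose product forms the L1 stalk. Rpl12 was at 313.1, 330.9 and 351.9 CPM in WT and 432.3, 423.6 and 408.5 CPM in Gpr174-KO (log2 fold change 0.34, SE 0.07, adjusted p = 0.00593 by edgeR's quasi-likelihood test). Rpl10a was at 320.5, 341.3 and 368.3 CPM in WT and 444.6, 434.9 and 424.6 CPM in Gpr174-KO (log2 fold change 0.34, SE 0.07, adjusted p = 0.00749 by the same edgeR test). All Gpr174-KO libraries lay above all WT libraries for both genes.

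The stalk recruits elongation factors to the ribosome. Its anchor Rplp0 had a log2 fold change of 0.06 (SE 0.08) and Rplp2 one of 0.10 (SE 0.06), both with overlapping CPM. Rplp1 had one of 0.25 (SE 0.10, adjusted p = 0.0598 by edgeR's quasi-likelihood test), just outside the threshold, and it passed with upper-quartile scaling (0.28, adjusted p = 0.0460). Rpl24, a protein of the subunit interface, was lower in CPM in every Gpr174-KO library (313.8 to 321) than in every WT library (338.9 to 344), but did not pass (log2 fold change -0.11, adjusted p = 0.134 by edgeR's quasi-likelihood test), and its sign turned with total counts (0.17).

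Among small subunit genes, 14 of 35 tested were higher (40.0%, beside 27.0% of all genes) and 1 lower (2.86%, beside 27.6%), with a median of 0.16. With total counts 34 were higher (97.1%, beside 50.7% of all genes) and 0 lower (beside 14.0%). Rps12, a protein of the head of the subunit, was at 251.4, 277.4 and 308.9 CPM in WT and 380.1, 384.5 and 380.4 CPM in Gpr174-KO (log2 fold change 0.45, SE 0.08, adjusted p = 0.00483 by edgeR's quasi-likelihood test). Rps19, needed for maturation of the small subunit and known from Diamond-Blackfan anaemia, was at 136.5, 146.2 and 164.1 CPM in WT and 207.4, 197.5 and 185.7 CPM in Gpr174-KO (log2 fold change 0.40, SE 0.08, adjusted p = 0.00691 by the same edgeR test). Both were without overlap, Rps12 with the narrower Gpr174-KO group. Rpsa, the laminin-binding protein of the small subunit, had a log2 fold change of 0.29 (SE 0.09, adjusted p = 0.0327 by edgeR's quasi-likelihood test), a call that was lost (adjusted p between 0.0517 and 0.115 in the same edgeR test) without any 1 library other than WT replicate 3.

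Rps6, the substrate of the S6 kinases, could not be read by its own row. Most counts of the gene and its near-identical copy Rps6-ps4, which is annotated as a transcribed pseudogene, were assigned to the copy, between 95.0% and 96.7% in each library. The row of Rps6 had a log2 fold change of 0.35 (adjusted p = 0.0961 by edgeR's quasi-likelihood test) with overlapping CPM, and the sum of both had one of 0.23 (SE 0.08, adjusted p = 0.0404 by the same test). Rpl31 with Rpl31-ps12, Rps27 with Rps27rt, Rpl37 with Rpl37rt, Rpl32 with Rpl32l and Rpl34 with Rpl34-ps1 share reads in the same way, and the adjusted p of these 5 sums lay between 0.0959 and 0.407 in the same edgeR test. Rpl34-ps1 itself, with 6 to 32 counts in a library, had a log2 fold change of -0.27 (SE 0.60).

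The members with the highest levels were Rpl41, Rplp1, Rps2, Rpl23a and Rps26. Rpl41, the smallest protein of the large subunit, was at 1758, 1980 and 2302 TPM in WT and at 3351, 3308 and 3174 TPM in Gpr174-KO, and it was higher in the edgeR quasi-likelihood fit (log2 fold change 0.32, SE 0.09, adjusted p = 0.0211). Rps26 was higher too (0.24, SE 0.07, adjusted p = 0.0300 by the same edgeR test). Both calls were lost without WT replicate 2, Gpr174-KO replicate 1 or Gpr174-KO replicate 2, with adjusted p of 0.0742, 0.0771 and 0.0799 for Rpl41 and 0.104, 0.0987 and 0.107 for Rps26 in that edgeR test. Rps2 (0.06, SE 0.07) and Rpl23a (0.18, SE 0.07) did not pass, although in TPM all 3 Gpr174-KO libraries were above all 3 WT libraries for both.

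To see which members left the others, the libraries were also scaled to the summed counts of the members, an analysis added after the data were seen. On that scale the member median was -0.02, 5 members were higher (Rpl3, Rps12, Rps19, Rpl12 and Rpl10a) and 4 lower (Rpl3l, Rps27l, Rpl36al and Rpl24), beside 16.1% and 37.9% of all genes. Rpl3 stood at 0.42 (SE 0.08, adjusted p = 0.00547 by edgeR's quasi-likelihood test) and Rpl3l at -2.48 (SE 0.31, adjusted p = 0.00151 by the same test). Leaving out 1 library at a time gave 1 to 9 members higher and 3 to 8 lower, the highest of both without WT replicate 3, with 1 higher without WT replicate 2 or Gpr174-KO replicate 2, 2 without Gpr174-KO replicate 1, and 3 without WT replicate 1 or Gpr174-KO replicate 3. Calls of Rpl12 and Rpl10a were lost without any 1 library other than WT replicate 3 (edgeR adjusted p between 0.0538 and 0.169). Those of Rps19 and Rpl24 were lost without WT replicate 2, Gpr174-KO replicate 1 or Gpr174-KO replicate 2 (edgeR adjusted p between 0.0692 and 0.0838). That of Rps12 was lost without WT replicate 2 or Gpr174-KO replicate 2 (edgeR adjusted p = 0.0618 and 0.0643).

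Other paralog pairs moved less than Rpl3l and Rpl3. Rps27l, a paralog of Rps27 known as a p53 target, was at 43, 44.82 and 49.5 CPM in WT and 41.24, 39.04 and 34.93 CPM in Gpr174-KO. Its log2 fold change was -0.25 (SE 0.08, adjusted p = 0.0358 by edgeR's quasi-likelihood test), and with total counts it was 0.02. The call was lost without WT replicate 2, WT replicate 3, Gpr174-KO replicate 2 or Gpr174-KO replicate 3 (adjusted p = 0.0827, 0.0543, 0.0908 and 0.0982 in the same edgeR test), and with upper-quartile scaling (adjusted p = 0.0517). Its share of the pair was 16.1%, 16.8% and 16.8% in WT and 15.4%, 14.6% and 12.2% in Gpr174-KO, lower without overlap (log2 difference of the ratio -0.28, exact permutation test p = 0.1, adjusted p = 0.167).

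Rpl36al, a paralog of Rpl36a, was at 80.08, 77.31 and 76.31 CPM in WT and 70.72, 68 and 68.19 CPM in Gpr174-KO. It was lower with TMM scaling (log2 fold change -0.18, SE 0.05, adjusted p = 0.0167 by edgeR's quasi-likelihood test) and not with total counts (0.10), and the call was lost without WT replicate 2 or Gpr174-KO replicate 2 (adjusted p = 0.0706 and 0.0879 in the same edgeR test). In its pair it held 42.8%, 40.0% and 35.8% in WT and 32.5%, 32.9% and 33.5% in Gpr174-KO, lower without overlap (log2 difference of the ratio -0.41, exact permutation test p = 0.1, adjusted p = 0.167). Rpl36a itself had a log2 fold change of 0.22 (SE 0.10).

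Rpl22l1 and Rpl22 did not part: Rpl22l1 held 41.5% to 46.7% of the pair in WT and 44.3% to 46.1% in Gpr174-KO (log2 difference of the ratio 0.04, exact permutation test p = 0.9). Rpl7l1 held 3.89% to 4.35% of its pair with Rpl7 in WT and 3.51% to 3.98% in Gpr174-KO, with overlap (log2 difference of the ratio -0.15, exact permutation test p = 0.2). With 3 libraries a group, a p of this size does not show that the ratios were alike.

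**Figure D4:**
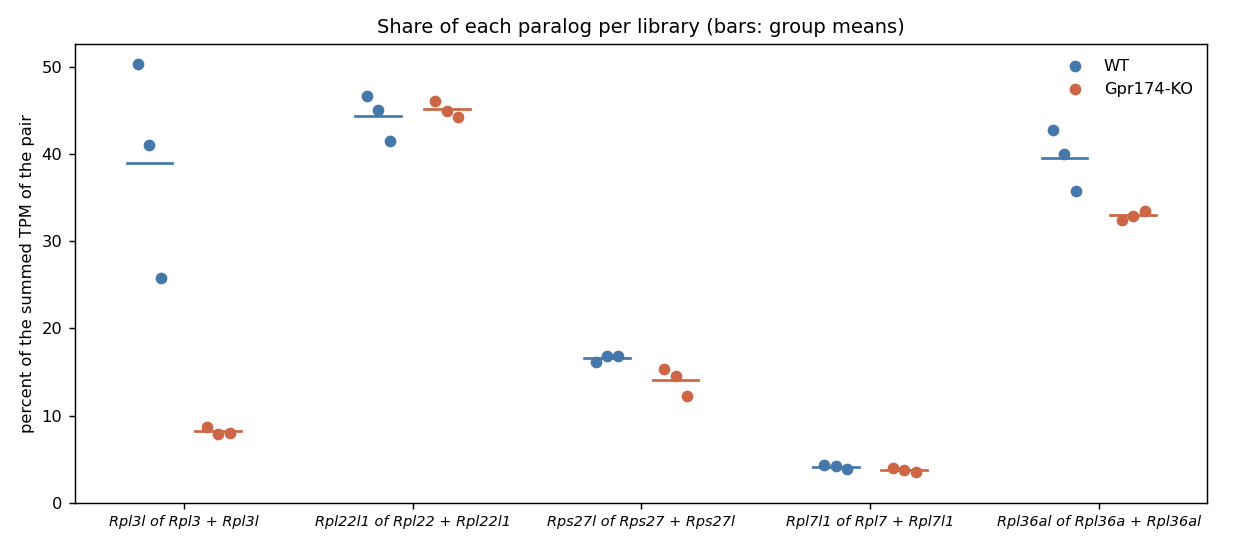
Share of each paralog in the summed TPM of its pair, in percent, with 1 point per library and bars at the group means, WT in blue and Gpr174-KO in orange. The share of Rpl3l falls from between 25.8% and 50.3% to between 7.95% and 8.65%, and the other 4 shares move by less.

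Rpl10l, Rpl32l, Rpl39l and Rps23rg1 were not tested, with fewer than 10 counts on average. Rpl10l and Rpl39l, paralogs known from testis, had 2 to 11 and 2 to 9 counts in a library, and Rps23rg1 0 or 1.

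Genes that make and use ribosomes were read beside the members. Of 65 tested genes of rRNA synthesis and ribosome assembly, 31 were higher (47.7%, beside 27.0% of all genes) and 3 lower (4.62%, beside 27.6%). Their median log2 fold change was 0.16. With total counts 55 were higher (84.6%, beside 50.7% of all genes) and 0 lower (beside 14.0%), with a median of 0.43. Without WT replicate 3 the number lower was 6. Nop58, a core protein of the box C/D particles that methylate rRNA, had a log2 fold change of 0.82 (SE 0.11, adjusted p = 0.00167 by edgeR's quasi-likelihood test), and Taf1d, of the RNA polymerase I factor SL1, one of 0.67 (adjusted p = 0.00185). Rrp12, of ribosomal subunit export, and Nop10, of the box H/ACA particles, fell by 0.35 and 0.34 on the log2 scale (adjusted p = 0.00449 and 0.00674 in the same edgeR fit). Grwd1, a chaperone of RPL3, had a log2 fold change of 0.05 (SE 0.06, adjusted p = 0.557 by edgeR's quasi-likelihood test). With total counts, where 50.7% of all genes were higher, Grwd1 passed (0.32, adjusted p = 0.00413 in the same edgeR test).

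The elongation factors held another pair of paralogs in which a muscle form and a general form parted. Eef1a2, the form of muscle and neurons, was at 523.3, 452.9 and 351.9 TPM in WT and 180.5, 173.6 and 158.1 TPM in Gpr174-KO. Eef1a1, the general form, was at 2839, 3271 and 4020 TPM in WT and 6249, 6409 and 6679 TPM in Gpr174-KO. Their log2 fold changes were -1.77 (SE 0.19, adjusted p = 0.00102 by edgeR's quasi-likelihood test) and 0.55 (SE 0.12, adjusted p = 0.00859 by the same test), and the groups overlapped for neither. Of the 13 elongation genes 2 were higher (15.4%, beside 27.0% of all genes) and 4 lower (30.8%, beside 27.6%), with a median of -0.04. With total counts 8 were higher (61.5%, beside 50.7%) and 1 lower (7.69%, beside 14.0%). With TMM scaling Eef1b2, a subunit of the exchange factor of EEF1A, was among those higher (0.31). Eef2k, the kinase that inhibits EEF2, was among those lower (-0.33). The number lower was 2 without WT replicate 2 or Gpr174-KO replicate 1 and 1 without Gpr174-KO replicate 2, and the call of Eef2k was lost in all 3 cases (adjusted p = 0.0623, 0.057 and 0.0626 in edgeR's quasi-likelihood test).

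Of 36 initiation genes 4 were higher (11.1%, beside 27.0% of all genes) and 12 lower (33.3%, beside 27.6%), with a median of -0.03. With total counts 21 were higher (58.3%, beside 50.7%) and 1 lower (2.78%, beside 14.0%). Without WT replicate 3 the number higher was 8, beside 31.7% of all genes. Eif1a and Eif4a1, a scanning factor and the helicase of the cap-binding complex, had log2 fold changes of 0.81 and 0.65, and Eif2b4 and Eif4a2 of -0.72 and -0.42, all past the threshold in edgeR's quasi-likelihood test (adjusted p = 0.00282, 0.00150, 0.00120 and 0.00622). Of 23 genes of mTORC1 and growth control 5 were higher (21.7%, beside 27.0% of all genes) and 8 lower (34.8%, beside 27.6%). Their median log2 fold change was -0.18. With total counts 10 were higher (43.5%, beside 50.7% of all genes) and 3 lower (beside 14.0%). Myc, a driver of ribosome genes, rose with a log2 fold change of 0.85 (SE 0.09, adjusted p = 0.000962 by edgeR's quasi-likelihood test), as did Sesn2 with 0.55, while Mycn had -0.96 and Akt1s1 -0.48 (adjusted p = 0.0319, 0.0122 and 0.00424 by the same edgeR test). Rps6kb1, the S6 kinase, and Eif4ebp1, the inhibitor of EIF4E, were higher by 0.19 and 0.40 on the log2 scale (adjusted p = 0.0191 and 0.00227 by edgeR's quasi-likelihood test). The number of these genes that were higher was 2 without WT replicate 2 or Gpr174-KO replicate 2 and 3 without Gpr174-KO replicate 1 or 3. The call of Sesn2 was lost without any 1 library other than WT replicate 3 (adjusted p between 0.0663 and 0.109 in the edgeR test) and that of Rps6kb1 without WT replicate 2, Gpr174-KO replicate 2 or Gpr174-KO replicate 3 (adjusted p between 0.0551 and 0.0752 in the edgeR test).

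The mitochondrial ribosomal proteins, which serve the separate ribosome of mitochondria, went the other way from the cytosolic ones. Of 78 tested, 0 were higher in edgeR's quasi-likelihood test, beside 27.0% of all genes (also 0 at an unadjusted p under 0.05, since no log2 fold change was above 0). In that test 72 were lower (92.3%, beside 27.6%), with a median of -0.49. Values ran from Mrpl42 at -0.98 (SE 0.14, adjusted p = 0.00217 by edgeR's quasi-likelihood test) and Mrpl53 at -0.83 to Mrpl20 at -0.06 and Mrpl52 at -0.00. With total counts 4 were higher (5.13%, beside 50.7%) and 46 lower (59.0%, beside 14.0%), with a median of -0.21. Genes of cytosolic ribosomal proteins whose symbols fall outside the rule were near the members: Rack1 at 0.34 (adjusted p = 0.0107) and Fau at 0.21 (adjusted p = 0.0467) by edgeR's quasi-likelihood test. The call of Fau was lost without any 1 library other than WT replicate 3 (adjusted p between 0.081 and 0.143 in the edgeR test) and that of Rack1 without WT replicate 2 (adjusted p = 0.0511).

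**Figure D5:**
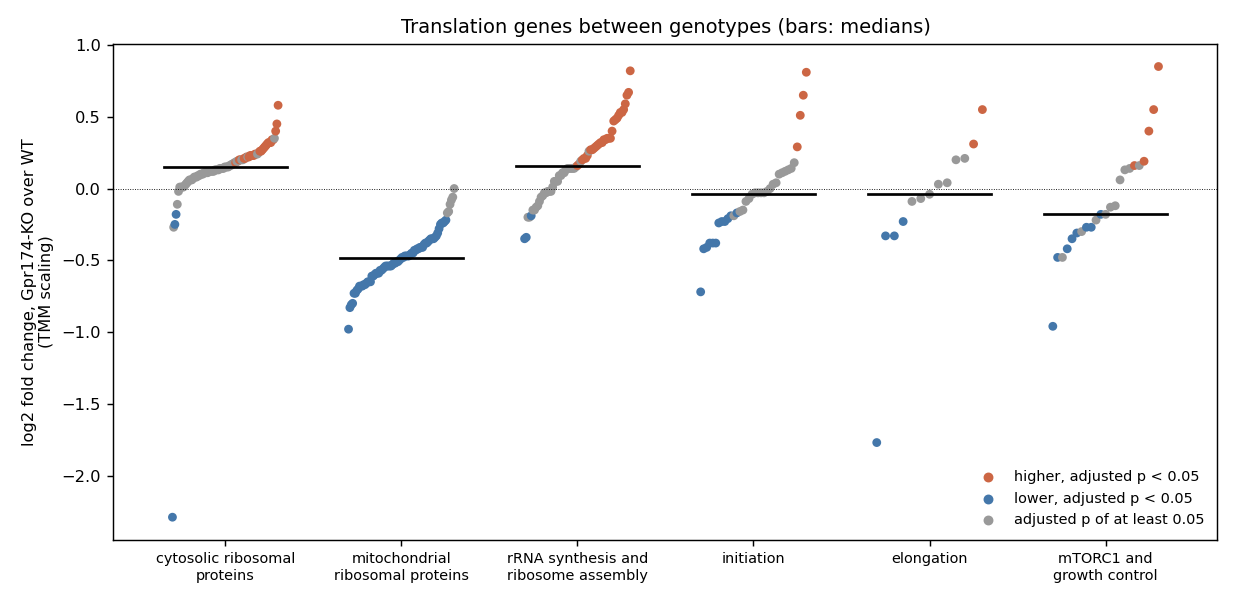
Log2 fold change of each tested gene, Gpr174-KO over WT, in 6 groups of translation genes, with a bar at the median of each group; colour marks the adjusted p and direction. Medians range from -0.49 for the mitochondrial ribosomal proteins to 0.16 for rRNA synthesis and ribosome assembly, and the lowest points of the cytosolic and elongation groups are Rpl3l (-2.29) and Eef1a2 (-1.77).

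The start windows were also read against the calls. Of the 25 members called higher that have a start window, 6 hold CTTTC near the start, and of the 38 tested members with a window that were called in neither direction, 11 do.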

How the data were processed

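RNA of the 6 samples was sequenced on the BGISEQ-500 platform according to the study's methods, while the labels name an Illumina TruSeq kit for the libraries. The authors deposited 1 table of 58843 RefSeq transcripts holding, for each library, expected counts (estimated reads per transcript, which need not be whole and are not normalized). The deposited FPKM values were divided by the authors by library size and by the length of the transcript, and the deposited TPM values are scaled so that each library sums to the same total. The submitters' processing notes name HISAT2 2.0.4, Bowtie2 2.2.5, RSEM 1.2.12 and GRCm39, without saying which step each served; the strand setting and annotation release are not given in the sources used here. Group averages in the table were not used.

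For each Entrez gene the expected counts of its transcripts were added and rounded, giving 18089 genes (99.7% with a symbol), of which 42.5% had whole counts, to within 0.005, in all 6 libraries. TPM and FPKM were summed likewise. Levels of different genes were compared in TPM only. CPM are counts scaled by the library total multiplied by its TMM factor. These factors were 0.873 to 0.952 in WT and 1.08 to 1.12 in Gpr174-KO. CPM summed over all genes therefore differed between libraries, with 1146000 in WT replicate 1 and 891800 in Gpr174-KO replicate 3. The summed CPM of a list is thus not its share of a library. Genes were tested with edgeR 4.0.16 in R 4.3.3 (TMM, filterByExpr, robust quasi-likelihood F-test, Benjamini-Hochberg adjustment over all 14395 genes tested, threshold 0.05), where the study had used DEGseq with a further threshold of 1 on the absolute log2 fold change. The common dispersion was 0.00967 and the median prior degrees of freedom 2.84. Counts of 14376 genes were also simulated for Gpr174-KO against WT, at a dispersion of 0.01. Of 200 changed genes 147 were recovered (73.5%), with 11 false calls. Recovery of changes as small as those of most members was not tested. In the data, 54.6% of all genes tested passed in either direction in edgeR's quasi-likelihood test. Recovery with such a share of genes, or with the order of replicates seen within each group, was not tested. The 147 recovered genes and 11 false calls are therefore no measure of the calls given here. Ratios and shares were compared with 2-sided exact permutation tests over the 6 libraries, made with scipy 1.17.1. A count of 3 per library was the floor below which no fold or ratio was read, and it covers counting error only.

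The members and the gene lists were chosen with earlier results of these data known. Members named with values are Rpl3, Rpl3l, every paralog pair, Rpsa and the stalk genes, the 5 largest and 5 smallest log2 fold changes, the 5 highest mean TPM and the lowest p in each direction; from each other list the 2 largest and 2 smallest, with Eef1a1, Eef1a2, Grwd1, Myc, Rps6kb1, Eif4ebp1, Fau and Rack1. A gene planned with the last 2 is not reported here. Rpl10a, Cd8a and the genes of lists of 5 or fewer were named after their values were seen, and cell type lists are given by count, median and sum. Rps4l, planned as a pair with Rps4x, is not analysed here. Alternatives were DESeq2 1.42.0 size factors and Wald test, total counts, upper-quartile scaling, limma voom, limma 3.58.1 on log2(FPKM + 1) and on log2(FPKM + 0.1), keeping genes that reached an FPKM of 1 in 3 or more libraries, other count filters (none, or at least 10 counts in every library), each library left out, replicates 1 and 3 only and a replicate block. Near-identical copies summed, fibre genes left out and scaling to the members' sum were chosen after seeing the data. Promoter windows are RefSeq GRCm38.p6, and no gene coordinates of the files' build were used.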

Additional observations from a re-analysis of the deposited data

How the results depend on the processing

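Rpl3l was lower in every alternative run (log2 fold change -2.54 to -1.92) and Rpl3 higher (0.50 to 0.86). Both passed the threshold in all of them except with replicates 1 and 3 only, where they stood at -2.23 (adjusted p = 0.0545 by edgeR) and 0.58 (adjusted p = 0.0920 by edgeR) and no gene passed, the smallest adjusted p being 0.0542; this setting has fewer samples. Leaving out 1 library gave -2.54 to -2.01 for Rpl3l, 0.50 to 0.69 for Rpl3, and -3.24 to -2.47 for their log2 ratio. The number of members higher was 82 with total counts, log2(FPKM + 1) and log2(FPKM + 0.1), 0 with replicates 1 and 3 only, and 8 to 58 with 1 library left out. The number lower was 1 with total counts and both FPKM fits, 0 with replicates 1 and 3 only, and 1 to 3 with 1 library left out. Scaled to the members' sum, 1 to 9 were higher and 3 to 8 lower with 1 library left out, and 0 and 1 with replicates 1 and 3 only. Over all genes, 7303 were higher and 2010 lower with total counts, 6817 and 1823 with log2(FPKM + 1), 6798 and 1816 with log2(FPKM + 0.1), 0 and 0 with replicates 1 and 3 only, and 2651 to 4626 and 2806 to 4539 with 1 library left out. The member median was 0.42 with total counts and log2(FPKM + 1), 0.43 with log2(FPKM + 0.1), and 0.12 to 0.21 with 1 library left out.

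Deviations of same-numbered libraries correlated at 0.016, -0.028 and -0.008, so replicate numbers were not taken as pairs between the groups. These values do not bear on the order of the libraries within each group, given above. With a replicate block 12 members were higher and 2 lower, 3305 genes were higher and 3507 lower, Rpl3l stood at -2.22 (adjusted p = 0.00583 by edgeR) and Rpl3 at 0.59 (adjusted p = 0.0154 by edgeR).

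Signs turned as follows, in genes whose log2 fold change was between -0.27 and 0.05. With total counts, log2(FPKM + 1) and log2(FPKM + 0.1), Rpl24 stood at 0.17 in each, Rpl36al at 0.10 in each, Rps27l at 0.02, 0.01 and 0.01, Mrpl20 at 0.22, 0.21 and 0.22, and Mrpl52 at 0.27 in each. Mrpl52 was also at 0.02 with upper-quartile scaling, 0.01 without a filter and 0.00 with at least 10 counts in every library. With 1 library left out, Rpl34-ps1 ranged from -0.93 to 0.14, Rpl7l1 from -0.01 to 0.12, Rps27 from -0.03 to 0.07, Mrpl20 from -0.11 to 0.02 and Mrpl52 from -0.04 to 0.06. The causes were not tested. Among the named genes under all alternatives, 839 values kept their direction and side of the threshold, 128 no longer passed, 52 now passed and 26 turned sign. Depth limits the members at fewer than 10 counts and those split with a near-identical copy.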
